A study of Homo sapiens with 6 samples.

Results

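Ligands and receptors of axon guidance were examined by sequencing of polyadenylated RNA in HuCCT1, a human cell line from a cancer of the bile ducts (cholangiocarcinoma). The members are the 70 rows of the count table, of 26485 in all, whose symbols belong to the EPH, ephrin, semaphorin, plexin, neuropilin, netrin, UNC5, SLIT and ROBO families, together with DCC and NEO1. They were chosen by name alone, and 35 were placed on the receptor side and 35 on the ligand side. Of the 6 libraries, 3 (a, b and c) came from clone 22, labelled AQP1 KO (a CRISPR knockout of the gene for the water channel aquaporin-1), and 3 (a, b and c) from clone 1, labelled WT. Both clones had been through the CRISPR procedure, per their titles, and were grown in DMEM-F12 with serum. Each genotype is 1 clone, so genotype and clone cannot be told apart. No label ties the letters to different cultures. The p-values therefore describe only how far the libraries scatter, and that scatter may be technical.

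Guidance cues steer growing axons and migrating cells by attraction and repulsion, and most of them also act outside the nervous system. EPH receptors are tyrosine kinases that bind ephrins on neighbouring cells. EPHA receptors mainly bind ephrins anchored by a lipid and EPHB receptors mainly bind ephrins that span the membrane, and both partners can signal into their own cell. Semaphorins act through plexins, which regulate small GTPases. The secreted class 3 semaphorins mostly need a neuropilin as co-receptor, and neuropilins also bind VEGF. Netrins act through DCC, NEO1 and UNC5 receptors, and SLIT proteins repel through ROBO receptors. In epithelia and carcinomas these families are known for cell sorting, adhesion and motility.

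Library totals were 36925338 to 40905209 counts in knockout and 40536085 to 41724447 counts in wild type. Levels are counts per 1000000 counts of a library (CPM), and 3 values in a row are libraries a, b and c. CPM values, their sums and their overlaps were scaled by library totals alone, without the normalization factors used in the test. AQP1 itself had 10, 7 and 7 counts in knockout and 2, 8 and 10 counts in wild type, too few to be tested, and its level therefore gives no check of the KO label. All 9 cholangiocyte markers on the list were tested, with 2 higher and 6 lower in the knockout. The 2 higher were SPP1 and ANXA4. SPP1 was at 11.4 ± 1.01 CPM in knockout and 0.291 ± 0.0469 CPM in wild type (SD, n = 3). ANXA4 was at 69.8 ± 2.9 CPM in knockout and 37.7 ± 2.01 CPM in wild type. Of those that fell, 3 follow. KRT7 was at 1613 ± 12.5 CPM in knockout and 1751 ± 38.3 CPM in wild type (SD, n = 3), KRT19 at 93.5 ± 4.59 CPM in knockout and 756 ± 13.8 CPM in wild type and EPCAM at 40.7 ± 1.41 CPM in knockout and 484 ± 6.24 CPM in wild type. The summed level of the list was 1971 to 2000 CPM in knockout and 3236 to 3315 CPM in wild type. Of 8 neuronal markers 3 were tested and all 3 were higher in the knockout, with a summed level of 103.8 to 111.4 CPM in knockout and 14.98 to 17.27 CPM in wild type. Most of it was the tubulin gene TUBB3, and STMN2, ELAVL4 and GAP43 were at 0 in all 6 libraries. Of 8 endothelial markers 5 were tested, 1 was higher and 1 lower, with a summed level of 5.037 to 5.354 CPM in knockout and 8.616 to 9.769 CPM in wild type. CDH5, which defines endothelium, was at 0.0443 ± 0.0568 CPM in knockout and 0.0326 ± 0.0282 CPM in wild type. Of 8 fibroblast markers 5 were tested and 4 were higher, with a summed level of 35.47 to 38.4 CPM in knockout and 15.85 to 18.14 CPM in wild type. Of 7 immune markers 3 were tested and all 3 were higher, with a summed level of 204.7 to 211.5 CPM in knockout and 107 to 112.7 CPM in wild type, most of it CD68, and PTPRC was at 0. Of 8 hepatocyte markers 2 were tested and both were higher, with a summed level of 84.14 to 91.43 CPM in knockout and 52.05 to 55.84 CPM in wild type, and TTR, APOB and CYP3A4 were at 0. Of 7 Schwann and glial markers 5 were tested, with 2 higher and 2 lower and a summed level of 110.7 to 114.8 CPM in knockout and 174.9 to 177.9 CPM in wild type. The part of these markers in the results was not tested.

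Guidance genes differed widely between the clones, in both directions. Of the 70 members, 55 had enough counts to be tested with edgeR's quasi-likelihood test, and 48 of them were called at a Benjamini-Hochberg adjusted p under 0.05 over all genes: 34 higher and 14 lower in the knockout. That is 87.3% of the tested members, beside 74.4% of the 14405 genes tested. Separately by direction it is 61.8% higher and 25.5% lower, beside 37.1% and 37.2% of all genes. A call with at least a 2-fold difference was found for 27 members, 49.1% of those tested, beside 22.8% of all genes. Of these, 20 were higher (13.7% of all genes were) and 7 were lower (9.05% of all genes were). Among these 27 are 8 receptor genes (EPHA5, EPHB6, PLXNA2, PLXNA4, UNC5A, UNC5B, UNC5C and ROBO2) that passed the filter on low counts only through the clone where they are high, so that their direction was fixed by the filter. In CPM scaled by library totals alone, values of the clones did not overlap in 50 members (90.9%), beside 77.3% of all genes. No test of the members as a list was made. All adjusted p-values below come from this fit.

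**Figure D1:**
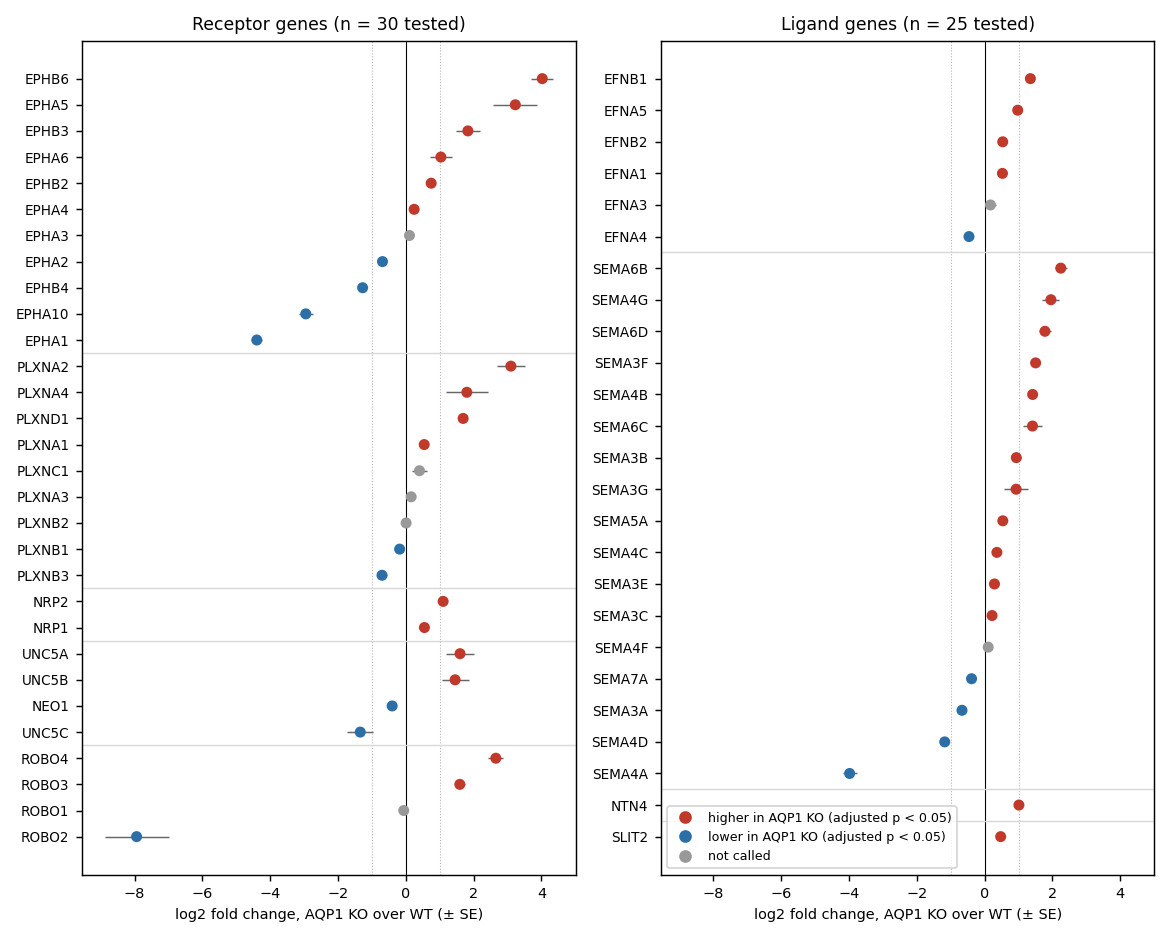
log2 fold change of each tested receptor gene (left, 30 genes) and ligand gene (right, 25 genes), knockout over wild type, with its standard error; red points were called higher in the knockout, blue points lower, and grey points were not called. Points on both sides spread to the left and right of 0, and the 2 dotted lines mark a 2-fold difference; the fitted value of ROBO2 (-7.94), which had 0 counts in the knockout, depends on the prior count.

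EPH receptors split into a rising and a falling set. Of 14 EPH genes, 11 were tested: 6 were higher, 4 were lower and EPHA3 was not called. Per length of exon, EPHA2 was the leading EPH transcript of both clones. It encodes the EPH receptor best known from carcinomas, and it had 196, 189 and 202 CPM in knockout libraries, against 302, 294 and 315 CPM in wild-type libraries (log2 fold change -0.69, SE 0.0306, adjusted p = 1.18e-10). EPHA2 made up 62.8% of the family's summed CPM per kb in knockout and 71.1% in wild type. Every knockout library lay below every wild-type library.

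The largest fall among members detected in both clones was in EPHA1, a receptor of epithelial tissues (chromosome 7, 143391129 to 143408856, GRCh38), which had 0.661, 0.709 and 0.487 CPM in knockout libraries, against 12.8, 13.7 and 11.6 CPM in wild-type libraries (log2 fold change -4.396, SE 0.162, adjusted p = 1.69e-11). EPHA10, a receptor without kinase activity, had 0.71, 0.782 and 0.785 CPM in knockout libraries, against 6.93, 4.99 and 5.1 CPM in wild-type libraries (log2 fold change -2.95, SE 0.206, adjusted p = 1.48e-08). EPHB4, a receptor of ephrin-B2, had 32.3, 29.5 and 31.9 CPM in knockout libraries, against 74.7, 69.2 and 74.3 CPM in wild-type libraries (log2 fold change -1.27, SE 0.0542, adjusted p = 7.55e-11). In all 3 genes the knockout libraries lay below the wild-type libraries by a wide margin. EPHA1 shares 82 exon bases with ZYX on the opposite strand (142 ± 7.47 CPM in knockout and 191 ± 7.12 CPM in wild type; SD, n = 3). EPHB4 shares 69 with SLC12A9, and the strand setting of the authors' counting is not given in the sources used here.

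Other EPH genes rose. EPHB6, which like EPHA10 lacks kinase activity, lies 520.0 kb from EPHA1 (chromosome 7, 142855076 to 142871093) and had 3.31, 3.45 and 3.22 CPM in knockout libraries, against 0.148, 0.121 and 0.312 CPM in wild-type libraries (log2 fold change 4.02, SE 0.321, adjusted p = 6.09e-08). EPHB2, which binds ephrin-B proteins, was the second EPH gene per length in the knockout, at 13.6 CPM per kb in knockout and 7.81 CPM per kb in wild type, and had 176, 173 and 163 CPM in knockout libraries, against 97.05, 97.9 and 98.4 CPM in wild-type libraries (log2 fold change 0.75, SE 0.0323, adjusted p = 8.8e-11). EPHB3, its close relative, had 2.18, 1.66 and 2.27 CPM in knockout libraries, against 0.345, 0.871 and 0.431 CPM in wild-type libraries (log2 fold change 1.83, SE 0.345, adjusted p = 0.000281). In these 3 EPHB genes every knockout library lay above every wild-type library, and EPHB4 alone of the 4 tested EPHB genes was lower. EPHB6 passed the filter only through the knockout libraries, which fixed its direction.

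Other EPHA genes were at low levels or moved little. EPHA5 had 33, 23 and 22 counts in knockout, against 2, 0 and 6 counts in wild type (log2 fold change 3.23, SE 0.654, adjusted p = 0.000512), and passed the filter only through the knockout libraries, which fixed its direction. EPHA6 had 1.05, 1.64 and 0.975 CPM in knockout libraries, against 0.592, 0.532 and 0.599 CPM in wild-type libraries (log2 fold change 1.03, SE 0.324, adjusted p = 0.0108). Its call was lost without knockout library b (adjusted p = 0.0824; range over the alternatives 0.00798 to 0.0824). EPHA4, which binds ephrins of both classes, had 12.9, 13.7 and 13.4 CPM in knockout libraries, against 11.5, 10.1 and 10.9 CPM in wild-type libraries (log2 fold change 0.25, SE 0.0833, adjusted p = 0.0167). Leaving out wild-type library b ended the call (adjusted p = 0.0896; range 0.00519 to 0.0896). EPHA3 had 40.8, 41.7 and 38.8 CPM in knockout libraries, against 35.4, 35.7 and 37.4 CPM in wild-type libraries (log2 fold change 0.11, SE 0.0556, adjusted p = 0.0967) and was not called. Its libraries did not overlap in CPM scaled by library totals alone, but the gap is within the scaling by normalization factors. EPHA7 had 0 counts in all 6 libraries, EPHA8 had 0 in knockout and 1 in wild type, and EPHB1 had 2 in knockout and 1 in wild type. For these 3, no difference was detectable at this depth.

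The 250 bases before the RefSeq start of EPHA1 are shown because it fell most among members detected in both clones. Capitals mark CACCTG or, on the other strand, CAGGTG, the E-box letters that ZEB and SNAI repressors are known to bind. The stretch is chr7:143408857-143409106, minus strand (GRCh38.p14, from RefSeq).
EPHA1: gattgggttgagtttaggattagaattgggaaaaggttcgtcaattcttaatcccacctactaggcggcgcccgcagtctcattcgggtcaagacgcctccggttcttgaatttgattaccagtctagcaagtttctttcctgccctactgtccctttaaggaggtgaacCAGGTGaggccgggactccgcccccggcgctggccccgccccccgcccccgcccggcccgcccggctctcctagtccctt
The match in the EPHA1 stretch begins 80 bases before the start. RefSeq promoter entries were found for 60 of the 70 members, 92 entries in all, since a gene can have several starts, some of them inside its span. The letters occurred in 15 of the 92 (16.3%), beside 17.5% of all 35116 entries. They occurred in 2 of 10 entries of members that fell at least 2-fold and in 4 of 30 entries of members that rose at least 2-fold.

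Ephrins were mostly higher. Of 8 ephrin genes, 6 were tested: 4 were higher, EFNA4 was lower and EFNA3 was not called. EFNB2, the leading ephrin transcript per length in both clones at 17.9 CPM per kb in knockout and 11.9 CPM per kb in wild type, had 93.2, 88.1 and 88.2 CPM in knockout libraries, against 58.4, 59.6 and 61.3 CPM in wild-type libraries (log2 fold change 0.53, SE 0.0381, adjusted p = 1.88e-08). EFNB1 had 16.1, 15.2 and 14.7 CPM in knockout libraries, against 5.85, 5.64 and 5.9 CPM in wild-type libraries (log2 fold change 1.35, SE 0.0895, adjusted p = 8.6e-09), the only tested ephrin with a difference of at least 2-fold. EFNA5 had 38.97, 36.1 and 39.8 CPM in knockout libraries, against 18.7, 18.9 and 18.6 CPM in wild-type libraries (log2 fold change 0.98, SE 0.0569, adjusted p = 2.17e-09). In these 3 genes no knockout library overlapped a wild-type library. An antisense transcript without a row in the table lies opposite 26.2% of the EFNB2 exon bases, so the EFNB2 counts are uncertain.

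The 3 neighbouring ephrin-A genes on chromosome 1 did not move alike. EFNA1, a ligand of EPHA2, had 8.06, 8.68 and 7.2 CPM in knockout libraries, against 5.4, 4.67 and 5.97 CPM in wild-type libraries (log2 fold change 0.52, SE 0.13, adjusted p = 0.00241). EFNA4 had 7.89, 6.82 and 6.61 CPM in knockout libraries, against 9.25, 9.85 and 9.2 CPM in wild-type libraries (log2 fold change -0.46, SE 0.107, adjusted p = 0.00148), and EFNA3 between them had 4.16, 4.82 and 5.96 CPM in knockout libraries, against 4.91, 4.24 and 3.62 CPM in wild-type libraries (log2 fold change 0.17, SE 0.171, adjusted p = 0.38), with overlapping libraries. EFNA3 shares 853 exon bases and EFNA4 189 with an annotated transcript that reads through both, so their counts are uncertain. EFNA2 had 20, 18 and 8 counts in knockout, against 0, 0 and 2 in wild type, a ratio of 23.95 with an exact 95% counting interval of 6.26 to 204. EFNB3 had 2, 14 and 4 counts in knockout and 0 in wild type, at least 6.94-fold higher with 3 counts over the group as floor. Both were too low to be tested.

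Both neuropilins and 3 of 4 A-type plexins were higher. NRP1, the co-receptor of SEMA3A and of VEGF, had 556, 563 and 528 CPM in knockout libraries, against 361, 379 and 345 CPM in wild-type libraries (log2 fold change 0.55, SE 0.0359, adjusted p = 7.45e-09). NRP2, the co-receptor of SEMA3F, had 151, 154 and 147 CPM in knockout libraries, against 67.4, 69.7 and 66.2 CPM in wild-type libraries (log2 fold change 1.100, SE 0.0313, adjusted p = 1.22e-12). Both neuropilins were higher in all 3 knockout libraries. Per length, NRP1 stood at 47.7 CPM per kb in knockout and 31.4 CPM per kb in wild type. Summed over both genes, neuropilin level was 56.4 to 60.0 CPM per kb in knockout and 34.7 to 37.9 CPM per kb in wild type.

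Among 9 plexin genes, all tested, 4 were higher, 2 were lower and 3 were not called. PLXND1, which binds SEMA3E directly, had 59.8, 61.4 and 63.3 CPM in knockout libraries, against 18.7, 17.9 and 18.4 CPM in wild-type libraries (log2 fold change 1.69, SE 0.0545, adjusted p = 4.34e-12). PLXNA1, a partner of neuropilins, had 297, 308 and 289 CPM in knockout libraries, against 199, 198 and 195 CPM in wild-type libraries (log2 fold change 0.54, SE 0.0287, adjusted p = 7.66e-10). PLXNA1 was the leading plexin per length in the knockout at 27.2 CPM per kb in knockout and 18.02 CPM per kb in wild type, and PLXNB2 was in wild type. PLXNA2 had 2.62, 2.13 and 1.79 CPM in knockout libraries, against 0.0987, 0.436 and 0.192 CPM in wild-type libraries (log2 fold change 3.099, SE 0.413, adjusted p = 1.18e-05). PLXNA4 had 10, 16 and 13 counts in knockout, against 2, 2 and 7 counts in wild type (log2 fold change 1.799, SE 0.626, adjusted p = 0.0189). Leaving out wild-type library a (adjusted p = 0.0664) or b (0.0773) ended its call, over a range of 0.00891 to 0.0773, and it could not be tested without knockout library b. PLXNA2 and PLXNA4 passed the filter only through the knockout libraries, which fixed their direction.

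No B-type plexin, the receptors of class 4 semaphorins, was called higher, except PLXNB2 with library totals as the only scaling (adjusted p = 0.0494; range 0.0494 to 0.973). PLXNB2, a receptor of SEMA4C, had 189, 184 and 188 CPM in knockout libraries, against 184, 175 and 179 CPM in wild-type libraries (log2 fold change 0.01, SE 0.0267, adjusted p = 0.813) and was not called. PLXNB1, the receptor of SEMA4D, had 28.95, 31.8 and 33.7 CPM in knockout libraries, against 36.7, 33.2 and 33.3 CPM in wild-type libraries (log2 fold change -0.18, SE 0.0677, adjusted p = 0.0257), with overlapping libraries. The call of PLXNB1 was lost without wild-type library a (adjusted p = 0.0718), without knockout library a (0.114) and with library totals as the only scaling (0.104), over a range of 0.0162 to 0.114. Without knockout library a its log2 fold change was -0.12. PLXNB3, a receptor of SEMA5A, had 9.28, 9.17 and 12.9 CPM in knockout libraries, against 17.2, 13.6 and 18.2 CPM in wild-type libraries (log2 fold change -0.703, SE 0.133, adjusted p = 0.000293). It shares 20.4% of its exon bases with SRPK3 on the same strand, so its counts are uncertain. PLXNA3 and PLXNC1 were not called. PLXNA3 had 58.4, 56.5 and 78.6 CPM in knockout, with library c above the others, against 58.6, 52.6 and 55.7 CPM in wild type. PLXNC1, the receptor of SEMA7A, had 3.5, 4.03 and 3.44 CPM in knockout, against 3.58, 1.96 and 2.47 CPM in wild type. Each had a call when 1 library was left out: PLXNA3 without knockout library b (adjusted p = 0.0198; range 0.0198 to 0.819) and PLXNC1 without wild-type library a (adjusted p = 0.0146; range 0.0146 to 0.36).

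Semaphorins were the largest family, with 20 genes, of which 17 were tested: 12 were higher, 4 were lower and SEMA4F was not called. Their summed level per length was 122.4 to 125.4 CPM per kb in knockout and 121.4 to 122.3 CPM per kb in wild type, a smaller difference than for ephrins. This difference was also smaller than the gap between the clones in normalization factors, so its direction depends on the scaling. SEMA7A, a semaphorin anchored by a lipid, led the family in both clones at 47.99 CPM per kb in knockout and 60.4 CPM per kb in wild type and had 179.7, 183 and 185 CPM in knockout libraries, against 231, 226 and 232 CPM in wild-type libraries (log2 fold change -0.39, SE 0.0244, adjusted p = 4.95e-09).

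Among the secreted class 3 semaphorins 6 of 7 were tested, 5 were higher and 1 was lower. SEMA3A, the prototype repellent that acts through NRP1, had 55.8, 57.2 and 59.04 CPM in knockout libraries, against 87.2, 87.9 and 88.2 CPM in wild-type libraries (log2 fold change -0.67, SE 0.0358, adjusted p = 8.79e-10) and was the one that fell. SEMA3F, which acts through NRP2, had 11.7, 10.4 and 10.8 CPM in knockout libraries, against 3.21, 4.19 and 3.76 CPM in wild-type libraries (log2 fold change 1.503, SE 0.125, adjusted p = 9.26e-08). SEMA3B, which lies 71.2 kb from SEMA3F, had 9.82, 9.07 and 11.2 CPM in knockout libraries, against 5.38, 5.52 and 4.27 CPM in wild-type libraries (log2 fold change 0.93, SE 0.13, adjusted p = 1.82e-05). All 3 had knockout and wild-type libraries that did not overlap. SEMA3C, which acts through NRP2, had 238, 229.6 and 232 CPM in knockout libraries, against 188, 196 and 196 CPM in wild-type libraries (log2 fold change 0.22, SE 0.0268, adjusted p = 5.36e-06), and SEMA3E, the ligand of PLXND1, had 70.7, 70.6 and 72.3 CPM in knockout libraries, against 54.1, 59.3 and 54.9 CPM in wild-type libraries (log2 fold change 0.29, SE 0.0447, adjusted p = 4.8e-05). SEMA3G had 1.93, 1.22 and 1.65 CPM in knockout libraries, against 1.04, 0.411 and 0.983 CPM in wild-type libraries (log2 fold change 0.93, SE 0.35, adjusted p = 0.0279). The SEMA3G call was lost without wild-type library b (adjusted p = 0.0953), knockout library a (0.109) or knockout library c (0.0513), over a range of 0.0154 to 0.109. Without wild-type library b its log2 fold change was 0.61.

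Membrane semaphorins held the largest rise and the largest fall among tested ligands. SEMA4A (chromosome 1, 156147373 to 156177744) had 0.686, 0.391 and 0.677 CPM in knockout libraries, against 10.02, 8.45 and 8.29 CPM in wild-type libraries (log2 fold change -3.98, SE 0.203, adjusted p = 5.17e-10). SEMA4D, a transmembrane ligand of PLXNB1 known from lymphocytes, had 12.8, 12.2 and 14.001 CPM in knockout libraries, against 28.2, 28.9 and 27.9 CPM in wild-type libraries (log2 fold change -1.18, SE 0.0632, adjusted p = 8.84e-10). SEMA4B moved the other way, with 61.9, 59.04 and 61.4 CPM in knockout libraries, against 22.99, 22.4 and 20.4 CPM in wild-type libraries (log2 fold change 1.42, SE 0.0592, adjusted p = 6.44e-11). Knockout and wild-type libraries were far apart in all 3. SEMA6B, a ligand of A-type plexins, had 8.77, 8.04 and 7.83 CPM in knockout libraries, against 1.68, 1.26 and 2.06 CPM in wild-type libraries (log2 fold change 2.25, SE 0.175, adjusted p = 4.88e-08), the largest rise among tested ligands. SEMA6D, a ligand of PLXNA1, had 5.63, 4.96 and 5.17 CPM in knockout libraries, against 1.53, 1.62 and 1.27 CPM in wild-type libraries (log2 fold change 1.78, SE 0.174, adjusted p = 5.14e-07). SEMA6C had 2.72, 1.74 and 1.92 CPM in knockout libraries, against 0.789, 0.774 and 0.743 CPM in wild-type libraries (log2 fold change 1.41, SE 0.27, adjusted p = 0.00032). All 3 tested class 6 semaphorins were thus higher in every knockout library. SEMA4G had 4.14, 3.18 and 4.55 CPM in knockout libraries, against 1.16, 0.653 and 1.13 CPM in wild-type libraries (log2 fold change 1.95, SE 0.25, adjusted p = 7.98e-06), but 22.3% of its exon bases lie opposite MRPL43 (57.8 ± 1.52 CPM in knockout and 59.6 ± 1.23 CPM in wild type; SD, n = 3), so its counts are uncertain. SEMA5A, a ligand of PLXNB3, and SEMA4C, a ligand of PLXNB2, were higher by less than 2-fold (log2 fold changes 0.54 and 0.36, adjusted p = 0.000151 and 0.000343). SEMA4F, the one not called, had 17.2, 16.6 and 17.6 CPM in knockout, against 16.4, 13.4 and 16.2 CPM in wild type. These did not overlap in CPM scaled by library totals alone, but the gap is within the scaling by normalization factors.

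RefSeq lists 4 starts for SEMA4A, the tested ligand that fell most, all of them 2571 bases or more inside the gene's span, and 1 of its 250-base stretches holds the E-box letters, in capitals, 211 bases before the start (chr1:156149694-156149943, plus strand, GRCh38.p14, from RefSeq). SEMA6B has no entry.
SEMA4A: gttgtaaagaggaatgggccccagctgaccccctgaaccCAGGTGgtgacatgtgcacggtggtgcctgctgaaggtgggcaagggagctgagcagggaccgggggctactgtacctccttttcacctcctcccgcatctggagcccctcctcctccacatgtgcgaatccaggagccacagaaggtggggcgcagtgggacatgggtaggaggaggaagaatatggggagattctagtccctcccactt
Its other 3 listed starts hold no match in the same window.

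Of the membrane semaphorins that were too low to be tested, SEMA6A had 5, 10 and 17 counts in knockout, against 1, 0 and 1 counts in wild type, a ratio of 16.7 with a counting interval of 4.25 to 144. SEMA5B had 2, 2 and 4 counts in knockout and 0 in wild type. SEMA3D, a secreted one, had 9, 6 and 10 counts in knockout and 15, 2 and 4 counts in wild type, which overlap.

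Netrin transcripts came almost wholly from 1 gene. NTN4, which binds laminins of basement membranes, had 52.2, 50.02 and 47.5 CPM in knockout libraries, against 24.6, 24.4 and 22.6 CPM in wild-type libraries (log2 fold change 1.01, SE 0.0614, adjusted p = 3.34e-09) and made up 99.6% of the family's CPM per kb in knockout and 99.7% in wild type. NTN1, the classical netrin, had 3, 8 and 8 counts in knockout, against 0, 2 and 0 counts in wild type, a ratio of 9.89 with a counting interval of 2.39 to 87.6. NTN3 had 0, 2 and 2 and NTN5 2, 0 and 2 counts in knockout, against 1, 0 and 2 and 2, 0 and 0 counts in wild type. NTN4 was higher in every knockout library than in any wild-type library.

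On the receptor side, DCC and UNC5D had 0 counts in all 6 libraries. NEO1, a relative of DCC that also binds RGM proteins, was the leading netrin receptor per length and had 8.45, 9.93 and 7.15 CPM in knockout libraries, against 11.7, 10.2 and 10.6 CPM in wild-type libraries (log2 fold change -0.403, SE 0.121, adjusted p = 0.00843). UNC5 receptors, which mediate repulsion by netrin, were all low. UNC5A had 27, 25 and 27 counts in knockout, against 6, 8 and 12 counts in wild type (log2 fold change 1.599, SE 0.422, adjusted p = 0.00365). UNC5B had 50, 32 and 31 counts in knockout, against 16, 17 and 8 counts in wild type (log2 fold change 1.45, SE 0.401, adjusted p = 0.00491). UNC5C had 11, 12 and 9 counts in knockout, against 28, 24 and 30 counts in wild type (log2 fold change -1.34, SE 0.386, adjusted p = 0.00633). UNC5A and UNC5B were thus higher and UNC5C lower, but each passed the filter only through the clone where it was high.

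ROBO genes went 3 ways. ROBO1, a receptor of SLIT2, was the leading ROBO transcript and had 149, 143 and 141 CPM in knockout libraries, against 145, 145 and 144 CPM in wild-type libraries (log2 fold change -0.06, SE 0.0277, adjusted p = 0.0601). It was not called, and was called without knockout library a (adjusted p = 0.0452; range 0.0452 to 0.813). ROBO2, the next member on chromosome 3 at a distance of 947.3 kb, had 0 counts in the knockout, against 27, 39 and 26 counts in wild type. With 3 counts over the group as floor it was at least 29.4-fold lower in the knockout (adjusted p = 1.09e-05), and it passed the filter only through the wild-type libraries.

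ROBO3 and ROBO4 lie side by side on chromosome 11, 2.2 kb apart, and both rose. ROBO3, which in mouse lets commissural axons cross the midline, had 7.35, 8.83 and 9.02 CPM in knockout libraries, against 2.52, 2.88 and 2.64 CPM in wild-type libraries (log2 fold change 1.59, SE 0.139, adjusted p = 1.6e-07). ROBO4, a ROBO receptor known from endothelium, had 4.16, 4.2 and 4.87 CPM in knockout libraries, against 0.765, 0.532 and 0.719 CPM in wild-type libraries (log2 fold change 2.66, SE 0.218, adjusted p = 8.29e-08). Both were higher in every knockout library. Of the endothelial markers TIE1 was higher too, at 1.67 ± 0.363 CPM in knockout and 0.243 ± 0.0513 CPM in wild type (SD, n = 3), ESAM was lower, at 1.07 ± 0.296 CPM in knockout and 6.51 ± 0.588 CPM in wild type, PECAM1 and VWF were not called, and CDH5 was near 0 in both clones. Their part in the ROBO4 result was not tested. Of ROBO4's exon bases 10.6% and 6.4% lie opposite 2 antisense transcripts that have no row in the table. Of the SLIT genes, SLIT2 had 6.25, 6.28 and 6.09 CPM in knockout libraries, against 4.59, 4.53 and 3.81 CPM in wild-type libraries (log2 fold change 0.47, SE 0.132, adjusted p = 0.00541). SLIT1 had 5, 16 and 17 counts in knockout, against 8, 2 and 2 counts in wild type, and SLIT3 had 6, 7 and 6 counts in knockout, against 4, 0 and 2 counts in wild type, and neither was tested.

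**Figure D2:**
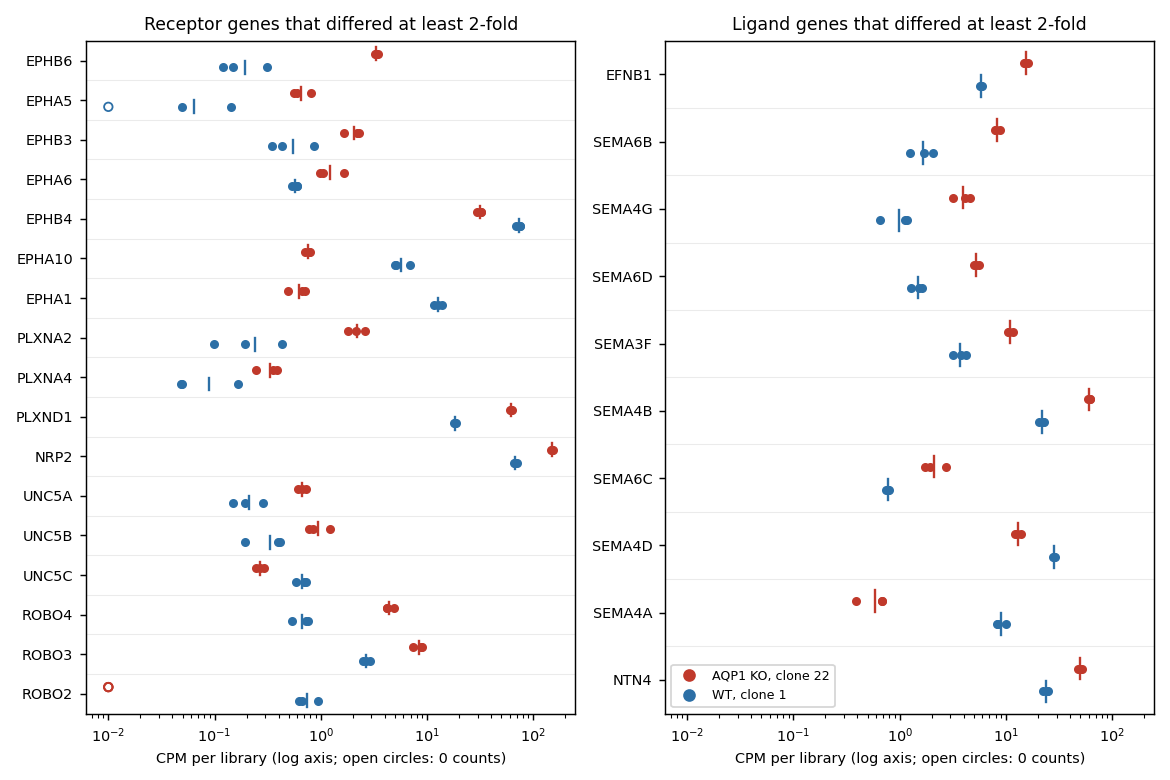
CPM in each library (log axis) of the 17 receptor genes (left) and 10 ligand genes (right) that were called and differed at least 2-fold; red points above are the 3 knockout libraries, blue points below the 3 wild-type libraries, and short lines are means. No knockout point overlaps a wild-type point of the same gene, and open circles mark 0 counts (ROBO2 in all knockout libraries, EPHA5 in wild-type library b).

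Receptor and ligand sides were set side by side without a test. Of 30 tested receptor genes 16 were higher, 9 were lower and 5 were not called. Of 25 tested ligand genes 18 were higher, 5 were lower and 2 were not called. Median log2 fold changes were 0.47 on the receptor side and 0.53 on the ligand side, beside 0.01 over all tested genes, and the receptor median was the same with ROBO2 at its bound. Changes of at least 2-fold were called in 17 receptor genes (12 higher, 5 lower; 56.7% of those tested) and in 10 ligand genes (8 higher, 2 lower; 40% of those tested), beside 22.8% of all genes. On the receptor side 6 tested genes had passed the filter only through knockout libraries and 2 only through wild-type libraries, and all 8 are among the 17. Of the 22 receptor genes that passed through both clones 9 (40.9%) differed at least 2-fold, so the difference in share from the ligand side came from those 8. On the ligand side all 25 passed through both clones, and 10 genes were too low to be tested.

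Summed per kb of exon, receptor level was 219.4 to 220.5 CPM per kb in knockout and 207.1 to 211.1 CPM per kb in wild type. These sums leave out the test's normalization factors, which were 1.0152 to 1.024 in knockout and 0.9799 to 0.9825 in wild type. The receptor difference was about as large as the gap between these factors. Ligand level was 175.5 to 180.1 CPM per kb in knockout and 156.5 to 157.0 CPM per kb in wild type. Receptor level was thus 1.224 to 1.252 times ligand level in knockout and 1.323 to 1.348 times in wild type. Within the receptor total, summed EPH level was lower (73.5 to 75.5 CPM per kb in knockout, against 99.7 to 105 CPM per kb in wild type) while neuropilins and plexins were higher. Most of the EPH sum was EPHA2, at 47 CPM per kb in knockout and 72.9 CPM per kb in wild type. The lower sum was not shared by all EPH genes, of which 6 were called higher and 4 lower. Plexins stood at 69.2 to 71.4 CPM per kb in knockout and 54.1 to 57.1 CPM per kb in wild type. Ephrins stood at 40.4 to 42.4 CPM per kb in knockout and 28.7 to 28.8 CPM per kb in wild type. Fewer cells with a transcript and less of it per cell cannot be told apart in these bulk libraries.

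**Figure D3:**
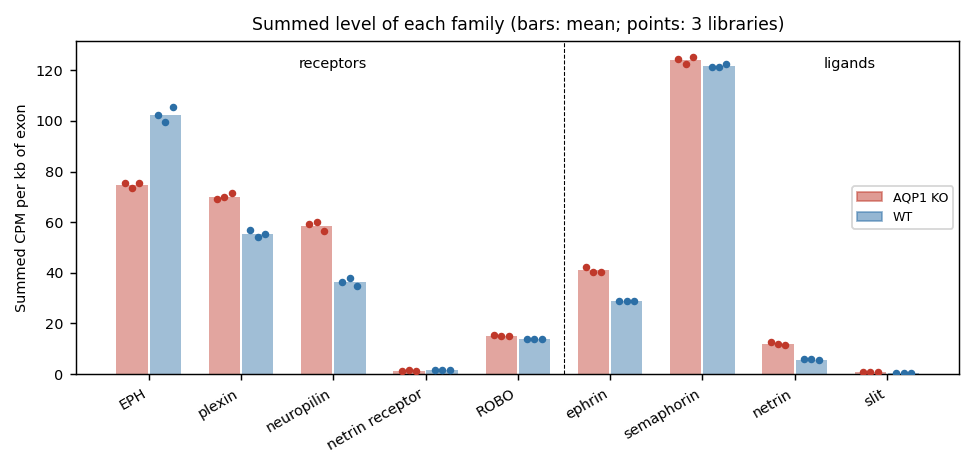
Summed level of each family in CPM per kb of exon, with receptors left and ligands right of the dashed line; bars are means of knockout (red) and wild type (blue) and points are the 3 libraries. The EPH sum, most of it EPHA2 (47 against 72.9), was lower in the knockout (73.5 to 75.5 against 99.7 to 105). Sums of neuropilins, plexins, ephrins and netrins were higher, and that of semaphorins changed little (122.4 to 125.4 against 121.4 to 122.3).

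Known ligand and receptor partners were compared over a list of 37 pairs, of which 27 had both genes tested and 21 had both called. Both partners were higher in 11 pairs and both were lower in 2. In 7 pairs the ligand was higher and the receptor lower, and in 1 pair (SEMA3A with NRP1) the ligand was lower and the receptor higher. The 7 include SLIT2 with ROBO2, and the direction of ROBO2 was fixed by the filter. Pairs share genes, so these counts are not independent. Of all tested ligand genes 72% were higher and 20% lower, and of all tested receptor genes 53.3% were higher and 30% lower. Whether partners moved together more often than these shares would give was not tested. The axes of NRP2 and PLXND1 were raised on both sides, with log2 fold changes of 1.503 for SEMA3F and 1.100 for NRP2, and of 0.29 for SEMA3E and 1.69 for PLXND1. EFNB1 (1.35) and its receptors EPHB2 (0.75) and EPHB3 (1.83) were also raised together. SEMA6D (1.78) was raised with PLXNA1 (0.54). EFNA1, EFNA5 and EFNB2, each with EPHA4 (0.25), are also among the 11, and the EPHA4 call was lost without wild-type library b. SEMA6B (2.25) is counted with PLXNA4 (1.799), whose direction was fixed by the filter and whose call depended on single libraries. Both pairs with lower partners hold PLXNB1 (-0.18), with SEMA4A (-3.98) and with SEMA4D (-1.18), and its call also depended on single libraries.

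Other pairs moved apart. EFNB2 was higher (0.53) and its receptor EPHB4 lower (-1.27). This holds for that pair alone: EFNB2 and EPHA4 were both higher. EPHB2 (0.75), which also binds ephrin-B proteins, was not paired with EFNB2 on the list. EFNA1 (0.52) and EFNA5 (0.98) were higher and their receptor EPHA2 lower (-0.69). SEMA4B was higher (1.42) and PLXNB1 lower (-0.18). NTN4 was higher (1.01) and NEO1 lower (-0.403). SLIT2 was higher (0.47) and ROBO2 lower, but the filter fixed the direction of ROBO2.

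**Figure D4:**
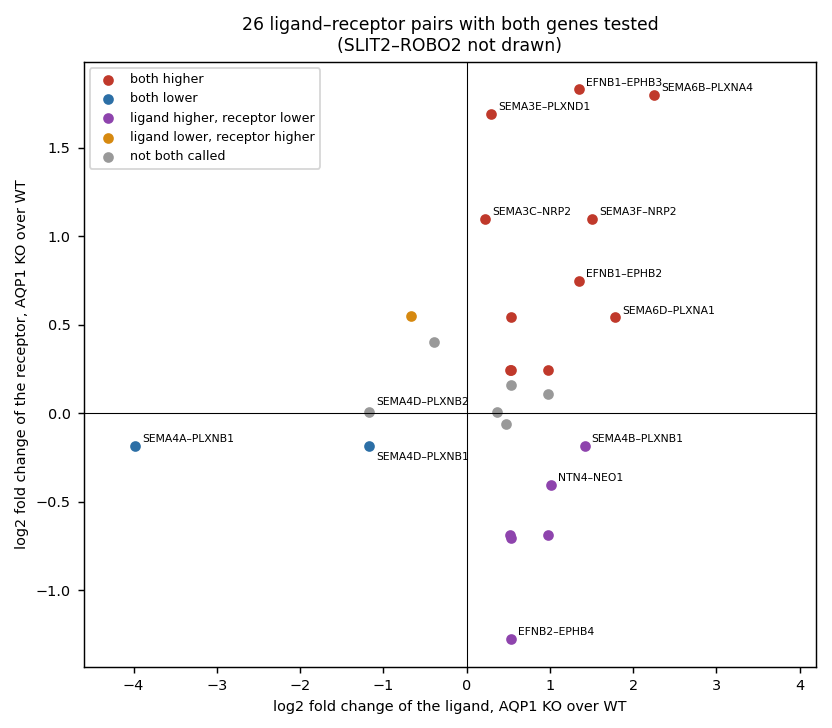
log2 fold change (knockout over wild type) of the ligand (horizontal) and of the receptor (vertical) in the ligand and receptor pairs with both genes tested, leaving out SLIT2 with ROBO2; names are given where a partner differed at least 2-fold. Upper right holds the 11 pairs with both partners higher, such as SEMA3F with NRP2, and lower right the pairs with a higher ligand and a lower receptor, such as EFNB2 with EPHB4.

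Position on the chromosome was set beside the changes. For each member the median log2 fold change of the other tested genes in a 10-Mb window centred on its start was taken, members left out, where the window held at least 10 genes. Of 46 called members with such a median, 23 had a median in their own direction and 23 against it. It was -0.53 around EPHA1 and -0.55 around EPHB6, which moved by -4.396 and 4.02. Around EFNA5 it was 0.87, close to the change of EFNA5 itself (0.98). It was -0.56 around EPHB4, 0.42 around SEMA4B, 0.41 around EFNB2, 0.42 around NRP2 and 0.48 around SEMA6D, each in the direction of the gene. Among the medians against their gene were those around EPHB3 (-0.91), PLXNA2 (-0.78), PLXNA4 (-0.61), NEO1 (0.54), SEMA7A (0.52), SEMA3C (-0.47), EPHA6 (-0.403), EPHB2 (-0.39) and SEMA3E (-0.36). It was -0.04 around PLXND1, -0.08 around SEMA3F, -0.03 around SEMA6B and -0.12 around SEMA4A. The part of neighbourhood shifts in these results was not tested.

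Genes that carry guidance signals inside the cell were called about as often as all genes. Their share with a 2-fold difference was larger, in part through genes whose direction was fixed by the filter. Of 45 listed transducers 42 were tested, with 19 higher, 14 lower and 9 not called and a median log2 fold change of 0.13. That is 78.6% called (45.2% higher, 33.3% lower), beside 74.4% of all genes (37.1% higher, 37.2% lower). A call with at least a 2-fold difference was found for 16 transducers (13 higher, 3 lower; 38.1% of those tested), beside 22.8% of all genes. TIAM1, an activator of the GTPase RAC1, had 1.37, 1.54 and 2.004 CPM in knockout libraries, against 0.0247, 0 and 0.0959 CPM in wild-type libraries (log2 fold change 5.18, SE 0.567, adjusted p = 1.65e-06). CHN2, a chimaerin that inactivates RAC, had 3.82, 4.35 and 4.5 CPM in knockout libraries, against 0.0987, 0.218 and 0.192 CPM in wild-type libraries (log2 fold change 4.56, SE 0.287, adjusted p = 4.94e-09). TIAM1 and CHN2 passed the filter only through the knockout libraries, which fixed their direction. So did PAK3, FES, SRGAP3 and DPYSL3, which are also counted as higher and as 2-fold differences. The largest falls were in the kinase genes ABL2 and LIMK2. ABL2 had 108, 110.5 and 106 CPM in knockout libraries, against 262, 253 and 258 CPM in wild-type libraries (log2 fold change -1.303, SE 0.0273, adjusted p = 6.1e-14), and LIMK2, which acts on cofilin, had 16.4, 17.2 and 15.7 CPM in knockout libraries, against 35.2, 33.1 and 33.8 CPM in wild-type libraries (log2 fold change -1.104, SE 0.0585, adjusted p = 7.78e-10).

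Of 30 listed co-receptors and related cues 29 had a row and 19 were tested, with 11 higher, 7 lower and 1 not called (94.7% called, beside 74.4% of all genes). A call with at least a 2-fold difference was found for 7 of them (36.8%), beside 22.8% of all genes. NTNG2, a membrane-anchored netrin relative, had 5.95, 5.33 and 6.26 CPM in knockout libraries, against 0.444, 0.242 and 0.192 CPM in wild-type libraries (log2 fold change 4.26, SE 0.262, adjusted p = 3.89e-09) and passed the filter only through the knockout libraries. FLRT2, which binds UNC5 receptors, had 69.4, 71.6 and 67.9 CPM in knockout libraries, against 11.2, 10.6 and 11.4 CPM in wild-type libraries (log2 fold change 2.601, SE 0.0588, adjusted p = 1.31e-13). VANGL2, a planar polarity gene, had 2.57, 1.71 and 3.01 CPM in knockout libraries, against 7.35, 7.65 and 6.59 CPM in wild-type libraries (log2 fold change -1.62, SE 0.185, adjusted p = 2.47e-06), and CNTN1 had 0.98, 1.03 and 0.84 CPM in knockout libraries, against 2.91, 2.98 and 2.23 CPM in wild-type libraries (log2 fold change -1.56, SE 0.233, adjusted p = 3.59e-05). VEGFA, another ligand of neuropilins, averaged 218 ± 22.3 CPM in knockout and 50.03 ± 2.09 CPM in wild type (SD, n = 3; log2 fold change 2.07, adjusted p = 1.18e-12). The VEGF receptor genes FLT1, KDR and FLT4 were too low to be tested. All 11 listed proteases that cleave guidance proteins were tested, with 6 higher, 4 lower and 1 not called (90.9% called, beside 74.4% of all genes). Only 2 of them (18.2%) were called with at least a 2-fold difference, beside 22.8% of all genes. BACE1 had 151, 152 and 151 CPM in knockout libraries, against 71.1, 68.1 and 70.97 CPM in wild-type libraries (log2 fold change 1.06, SE 0.0281, adjusted p = 6.19e-13), and PCSK5, which also passed the filter only through the knockout libraries, had 1.59, 1.86 and 1.54 CPM in knockout libraries, against 0.0493, 0.145 and 0.12 CPM in wild-type libraries (log2 fold change 3.89, SE 0.405, adjusted p = 9.69e-07). FURIN, which processes semaphorins, had 23.6, 23.2 and 22.4 CPM in knockout libraries, against 41.2, 41.1 and 40.6 CPM in wild-type libraries (log2 fold change -0.88, SE 0.0543, adjusted p = 3.8e-09), and PSEN2, a gamma-secretase subunit, had 16.998, 15.6 and 15.9 CPM in knockout libraries, against 26.5, 26.3 and 23.8 CPM in wild-type libraries (log2 fold change -0.71, SE 0.0651, adjusted p = 2.63e-07).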

How the data were processed

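Polyadenylated RNA of 6 HuCCT1 libraries was sequenced after stranded TruSeq library preparation, per the labels' protocols. The authors deposited 1 table of whole-number read counts per gene symbol, not normalized. The submitters' processing notes name Trimmomatic 0.33, FastQC, HISAT2, edgeR and genome build hg38. For the counting program, its strand setting and its annotation, the sources used here give nothing.

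Groups followed the genotype labels. The test was that of edgeR 4.0.16 (R 4.3.3), with filterByExpr (about 10 counts in each of 3 libraries), TMM normalization (factors 0.98 to 1.02) and the quasi-likelihood F test for the genotype term, fitted on the 6 libraries without covariates. Benjamini-Hochberg adjustment ran over all 14405 tested genes, with a threshold of 0.05. A standard error is the size of the log2 fold change over the root of F. The steps were tested on simulated counts. Within groups, pairs of libraries gave a chi-square of 4.18 to 7.6 per degree of freedom (genes of 20 counts or more), so no libraries agreed within sampling noise. Intervals and the floor of 3 counts (0.0719 to 0.0812 CPM per library) cover counting error only.

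Exon lengths and overlaps came from GENCODE v29 and coordinates and promoters from RefSeq GRCh38.p14, which need not be the authors' annotation. The members, the lists of pathway genes, markers and pairs, and the tests were chosen with earlier results of these data known. Named with values were members called at 2-fold or more, each family's most abundant member in CPM, both genes of tested pairs with a 2-fold partner, and the 2 largest rises and falls of each pathway list; other members, and VEGFA with its receptors, were added to account for all. Alternatives were DESeq2 1.42.0, limma-voom (limma 3.58.1), RLE factors, scaling by totals only, dropping the filter, requiring 1 CPM in 3 libraries, the letters as a replicate block and each library left out in turn.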

Additional observations from a re-analysis of the deposited data

How the results depend on the processing

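Counts of called receptor, ligand, transducer, co-receptor and protease genes, and of all genes, stayed within 1.5 times under every alternative run. Receptor calls numbered 25 in the fit as reported and 18 to 26 over the alternatives, the lowest under the 1 CPM minimum, which left 23 receptor genes to test. Ligand calls numbered 23 and ranged from 23 to 26. Calls over all genes numbered 10711 and ranged from 10009 to 11188. Without a filter, EFNA2, EFNB3 and SEMA6A were called as well (adjusted p = 0.000576, 0.00752 and 0.0043, edgeR). Some leave-one-out fits also tested EFNA2 (0.000644 to 0.00432) and SEMA6A (0.0014 to 0.0077). SLIT1, tested in some leave-one-out fits, was called without wild-type library a (adjusted p = 0.0169) or knockout library a (0.0175), over a range of 0.0169 to 0.16. With library totals alone EPHA3 and PLXNB2 gained a call (adjusted p = 0.0173, range 0.0173 to 0.208, and 0.0494, range 0.0494 to 0.973), and EPHA3 also without knockout library c (0.0357). Of the 51 genes named by the rules above 46 kept their direction and call under every alternative that tested them. Members added to account for all are outside these 51. Among those, EPHA3, EPHA4, SEMA3G, PLXNA3 and PLXNC1 changed their call under some alternative. PLXNB2, not called, changed sign without wild-type library b (log2 fold change -0.015; range over left-out libraries -0.015 to 0.028). DESeq2, limma-voom and RLE factors changed no member's call. Same-letter libraries did not deviate together (correlations 0.058, -0.019 and 0.008 over genes), so the letters give no pairing. With the letters as a replicate block 10599 genes, 25 receptor genes and 23 ligand genes were called. In the fit as reported, members without about 10 counts in each of 3 libraries were left out by the filter.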
